A study of Rattus norvegicus with 15 samples.

Results

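Genes for 8 enzymes of the cytochrome P450 branch of arachidonic acid metabolism were followed here in the kidney cortex and the mesenteric artery of the rat. They are the fatty acid hydroxylase genes Cyp4a1, Cyp4a2, Cyp4a3 and Cyp4a8, the epoxygenase genes Cyp2c23 and Cyp2j4, and the epoxide hydrolase genes Ephx1 and Ephx2. They were chosen by gene name, and make up 8 of the 34357 genes with an identifier. Total RNA was sequenced from Dahl salt-sensitive (SS) rats, which become hypertensive when fed salt. The deletion rats, labelled KO, carried a noncoding deletion of 30.4 kb beside Npr3 (rn7 chr2:60825801-60856216), the place that corresponds to a human haplotype block. The controls were wild-type, labelled WT, and the titles call every sample male. There were 4 deletion and 3 wild-type kidneys, and 4 deletion and 4 wild-type arteries. The age and diet of the rats and the number of deletion lines are not given in the labels. Separate animals are not stated for the libraries, so errors and p-values measure the spread between these libraries, which may be technical. The comparison asks whether loss of the interval altered these genes in either tissue. None of the 8 genes lies on chromosome 2.

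Arachidonic acid released from membranes is oxidised by P450 enzymes along competing routes. Hydroxylases of the CYP4A family make 20-HETE, which constricts small arteries and inhibits sodium transport in the renal tubule. Epoxygenases make epoxyeicosatrienoic acids (EETs), which dilate arteries and also inhibit sodium transport, and epoxide hydrolases open the EETs to diols of lower activity. The CYP4A enzymes and Cyp2c23, the main epoxygenase of the rat kidney, are abundant in the proximal tubule, and the Cyp4a genes are textbook targets of the nuclear receptor PPAR alpha. In rats, Cyp4a2 is also known for higher mRNA in males than in females.

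The 4 Cyp4a genes lie in a cluster of 435 kb on chromosome 5 of rn7. Cyp4a8 (chr5:128702130-128733476, minus strand), Cyp4a2 (chr5:128922355-128934188, minus strand) and Cyp4a3 (chr5:129097571-129115488, minus strand) are followed by Cyp4a1 (chr5:129123323-129137464, plus strand). Between Cyp4a2 and Cyp4a3 lies LOC120102953 (chr5:129010501-129021087, minus strand), which RefSeq names Cyp4a2l1. It was added after its values were seen, because its levels followed those of Cyp4a2 and reads may be shared between the genes. The other genes are Cyp2j4 (chr5:111179981-111207490), Cyp2c23 (chr1:242889218-242913869), Ephx1 (chr13:92714315-92744105) and Ephx2 (chr15:40289901-40327632), all on the minus strand of rn7.

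Promoters of 6 of the 8 genes were found in RefSeq, on the build GRCr8; Cyp4a1 and Ephx2 had no entry. The 250 bases before the annotated start are shown for the 3 minus-strand Cyp4a genes and the copy, since these neighbours share sequence but did not share a pattern of expression in every kidney. The windows are chr5:134170909-134171158 for Cyp4a2, chr5:134257827-134258076 for Cyp4a2l1, chr5:134352237-134352486 for Cyp4a3 and chr5:133970227-133970476 for Cyp4a8, each on the minus strand and written 5′ to 3′. Capitals mark AGGTCA, the hexamer bound by many nuclear receptors, which was searched on both strands (TGACCT on the other).
Cyp4a2: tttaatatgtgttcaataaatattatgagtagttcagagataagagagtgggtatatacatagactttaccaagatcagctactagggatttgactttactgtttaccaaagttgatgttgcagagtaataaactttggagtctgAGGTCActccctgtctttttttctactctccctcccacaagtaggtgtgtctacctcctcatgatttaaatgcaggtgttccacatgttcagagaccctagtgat
Cyp4a2l1: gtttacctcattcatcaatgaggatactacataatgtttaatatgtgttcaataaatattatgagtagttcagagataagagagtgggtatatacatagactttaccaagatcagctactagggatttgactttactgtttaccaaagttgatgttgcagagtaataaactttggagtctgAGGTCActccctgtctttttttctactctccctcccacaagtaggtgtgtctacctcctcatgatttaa
Cyp4a3: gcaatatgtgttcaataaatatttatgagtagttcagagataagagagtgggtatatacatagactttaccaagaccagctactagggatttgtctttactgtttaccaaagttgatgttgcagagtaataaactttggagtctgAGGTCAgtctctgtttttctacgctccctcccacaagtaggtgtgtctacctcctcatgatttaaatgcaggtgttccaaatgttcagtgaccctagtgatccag
Cyp4a8: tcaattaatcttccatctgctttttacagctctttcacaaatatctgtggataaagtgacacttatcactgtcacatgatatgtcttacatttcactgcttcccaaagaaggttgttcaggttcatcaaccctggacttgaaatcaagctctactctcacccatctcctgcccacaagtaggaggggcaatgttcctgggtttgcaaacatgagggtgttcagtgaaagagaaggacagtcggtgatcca

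Cyp4a2 and Cyp4a2l1 shared all 214 bases of their overlap, with the windows set apart by their annotated starts. Cyp4a2 and Cyp4a3 had 236 identical bases, 9 mismatched bases and 10 gaps over the alignment, or 92.5% identity. Cyp4a2 and Cyp4a8 were 57.4% identical. The hexamer began at base -105 in Cyp4a2, -69 in Cyp4a2l1 and -105 in Cyp4a3, counted from the gene start, and had no match in the window of Cyp4a8. It occurs in 14.1% of all 33469 promoters of this length. A direct repeat of this hexamer with 1 base between the copies, searched on both strands, occurs in 0.0508% of them and in none of the windows found for these genes.

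The tissues carried their own markers. The sum of 6 proximal tubule markers (Slc34a1, Lrp2, Cubn, Slc5a2, Slc5a12 and Slc22a6) was 1702 to 2563 FPKM in the kidneys, against 1.35 to 7.85 FPKM in the arteries. FPKM is the number of fragments scaled by gene length and library size. The sum of 3 smooth muscle markers (Acta2, Myh11 and Tagln) was 21.2 to 47.0 FPKM in the kidneys, against 1159 to 2431 FPKM in the arteries. The sum of the fat cell markers Adipoq and Plin1 was 2.26 to 5.54 FPKM in the kidneys, against 685 to 1273 FPKM in the arteries. Read depth is unknown, since the values are FPKM. The library labelled kidney wild-type 3 did not match the male label of its title in its sex-linked genes. It held 81.1 FPKM of Xist, against 0.124 to 0.432 FPKM in the other 6 kidneys, and 0 FPKM of Eif2s3y, against 35.9 to 39.6 FPKM. The kidney differences between genotypes are therefore given with and without it.

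In the kidney, Cyp2c23 and Cyp4a2 were among the 64 genes with the highest mean FPKM of the 34357. Cyp2c23 averaged 602 ± 168 FPKM (SD, n = 7) and ranked 59, and Cyp4a2 averaged 545 ± 212 FPKM (SD, n = 7) and ranked 64. Cyp2c23 exceeded Cyp4a2 in 3 of 7 kidneys, so the order of this pair was not beyond their spread. Without wild-type 3 Cyp2c23 averaged 559 ± 134 FPKM and Cyp4a2 616 ± 110 FPKM (SD, n = 6 each), the reverse order. Cyp4a8 (145 ± 38.0 FPKM, SD, n = 7) and Cyp4a3 (141 ± 43.9 FPKM, SD, n = 7) came next and were also not separated, Cyp4a8 being the higher in 4 of 7 kidneys. Cyp4a2 was above Cyp4a8 in 6 of 7 kidneys, the exception being wild-type 3. Below Cyp4a3 stood Ephx1, lower than Cyp4a3 in 7 of 7 kidneys although their ranges overlapped. Ephx1 averaged 73.7 ± 12.9 FPKM (SD, n = 7), and Cyp4a1, known from rat enzyme studies as an efficient producer of 20-HETE, averaged 22.2 ± 4.97 FPKM (SD, n = 7). Ephx2 (3.81 ± 0.465 FPKM, SD, n = 7) and Cyp2j4 (3.48 ± 1.30 FPKM, SD, n = 7) were the lowest, with overlapping ranges.

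In the artery the order differed. Ephx1, the microsomal epoxide hydrolase, was highest at 34.1 ± 5.22 FPKM (SD, n = 8). Cyp2j4 averaged 4.06 ± 0.302 FPKM (SD, n = 8) and Ephx2, the soluble epoxide hydrolase, 1.66 ± 0.339 FPKM (SD, n = 8). These 3 did not overlap each other. Each of the other 5 genes averaged under 0.5 FPKM, between 0.0533 FPKM for Cyp4a8 and 0.164 FPKM for Cyp4a2, and their ranges overlapped.

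Set against the arteries, the kidneys held more RNA of every member except Cyp2j4. With limma on log2(FPKM + 0.5), averaged over the genotypes, 7 of 8 members were called higher in the kidney at a Benjamini-Hochberg adjusted p under 0.05 over all genes tested, where 35% of 17842 genes were called higher, 42.4% lower and 77.4% in either direction. At an unadjusted p under 0.05, 7 members and 78.8% of genes passed. The groups did not overlap for 7 of 8 members, against 49.9% of all genes. The log2 difference, kidney minus artery, was 9.86 for Cyp2c23 (SE 0.19, limma adjusted p = 4.5e-16), 9.52 for Cyp4a2 (SE 0.31), 8.03 for Cyp4a8 (SE 0.14), 7.86 for Cyp4a3 (SE 0.18) and 5.21 for Cyp4a1 (SE 0.13). These 5 genes were below 0.5 FPKM on average in artery and passed the filter through the kidney alone, so their direction was fixed by the filter and their calls are given as a description. For them the size is set in part by the added 0.5, since all but 1 of their artery values lie below it. Without kidney wild-type 3 the same 7 members were called. Ephx1 had a ratio of 2.14 (95% interval 1.76 to 2.60, limma adjusted p = 1.5e-06) and Ephx2 one of 2.03 (1.72 to 2.39, limma adjusted p = 5.88e-07). Cyp2j4 had a log2 difference of -0.31 (SE 0.15, limma adjusted p = 0.0656) and did not pass. Without kidney wild-type 3 it was -0.18 (limma adjusted p = 0.22). Cyp2j4 passed without kidney wild-type 1 (-0.44, limma adjusted p = 0.00664) and without kidney deletion 1 (limma adjusted p = 0.0257). It also passed with array weights (limma adjusted p = 0.0293). That fit gave kidney wild-type 2 a weight of 24.5, and its search for the weights stopped before it converged. The median over all genes was -0.13. In bulk tissue, fewer cells of a type and less RNA per cell cannot be told apart.

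**Figure D1:**
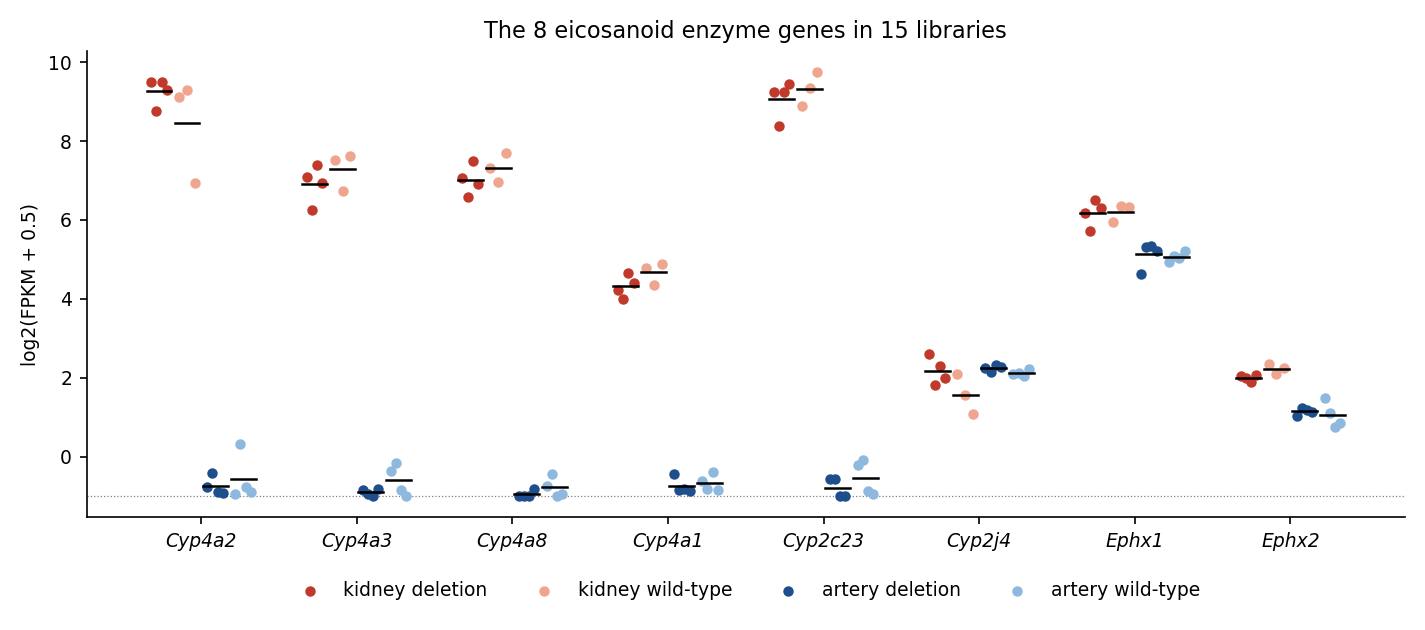
Level of each gene in the 15 libraries on the log2(FPKM + 0.5) scale; points are libraries, coloured by tissue and genotype, black lines are group means and the dotted line marks 0 FPKM. The Cyp4a genes and Cyp2c23 stand at the foot of the scale in the arteries, while Cyp2j4, Ephx1 and Ephx2 are measured in both tissues.

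In the kidney, none of the 8 genes passed the test between deletion and wild-type. Limma called 0 of 8 members and 0 of 15444 genes (0%), with 0 members and 217 genes (1.41%) at an unadjusted p under 0.05; every adjusted p of a member was 0.999. Without wild-type 3 it again called 0 of 8 members, and 0 of 15548 genes, with 0 members and 157 genes (1.01%) at an unadjusted p under 0.05. The members had a median log2 difference, deletion minus wild-type, of -0.24 (-0.08 without wild-type 3), against 0.04 over all genes (0.00171 without wild-type 3). The groups did not overlap for 1 of 8 members, Ephx2, where 2.55% of all genes did not overlap; without wild-type 3 it was again 1 member, against 6.26% of genes. None of the kidney differences given next passed this test.

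Cyp4a2, an abundant hydroxylase of the rat kidney, had 728, 432, 716 and 632 FPKM in the deletion kidneys, against 558, 629 and 122 FPKM in the wild-type kidneys. The groups overlapped, and wild-type 3 stood far below the other 6 kidneys. The means were 627 ± 137 FPKM (SD, n = 4) in deletion and 436 ± 275 FPKM (SD, n = 3) in wild-type kidneys. The ratio from the limma fit was 1.75 (95% interval 0.782 to 3.94; log2 difference 0.81, SE 0.52, limma unadjusted p = 0.152), and the exact permutation p of the difference of FPKM means was 0.314. Without wild-type 3 the wild-type mean was 594 ± 49.9 FPKM (SD, n = 2), the ratio 1.04 (0.644 to 1.67) and the log2 difference 0.05. The exact permutation p was then 0.8, the smallest possible being 0.0667 over 15 arrangements.

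LOC120102953 had 1045, 613, 1067 and 913 FPKM in the deletion kidneys, against 803, 921 and 189 FPKM in the wild-type kidneys. It was lowest in the same library as Cyp4a2. Its level was 1.42 to 1.55 times that of Cyp4a2 in all 7 kidneys. Whether reads were split between these genes, whose transcripts were not compared here, was not tested, so the level of each is uncertain. For their sum the log2 difference was 0.79 (SE 0.53, added after the data were seen), and 0.05 without wild-type 3.

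Cyp4a3, a close relative of Cyp4a2, had 136, 76.2, 168 and 121 FPKM in the deletion kidneys, against 184, 107 and 198 FPKM in the wild-type kidneys. The groups overlapped, with deletion 2 lowest and wild-type 3 highest. The means were 125 ± 38.0 FPKM (SD, n = 4) in deletion and 163 ± 49.2 FPKM (SD, n = 3) in wild-type kidneys. In limma the log2 difference was -0.38 (SE 0.30, limma unadjusted p = 0.239), -0.22 without wild-type 3 and 0.27 with array weights.

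Cyp4a8, another hydroxylase of the cluster, had 134, 94.9, 179 and 121 FPKM in the deletion kidneys, against 158, 124 and 206 FPKM in the wild-type kidneys. Again deletion 2 was lowest, wild-type 3 was highest and the groups overlapped. The means were 132 ± 35.1 FPKM (SD, n = 4) in deletion and 163 ± 41.0 FPKM (SD, n = 3) in wild-type kidneys. The log2 difference was -0.31 (SE 0.25, limma unadjusted p = 0.257), -0.12 without wild-type 3 and 0.09 with array weights. Cyp4a8 kept close to Cyp4a3, at 0.859 to 1.25 times its level in the 7 kidneys.

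Cyp4a1 had 18.3, 15.5, 24.9 and 20.5 FPKM in the deletion kidneys, against 27.1, 19.98 and 29.2 FPKM in the wild-type kidneys. It showed the same extremes, deletion 2 low and wild-type 3 high, and the groups overlapped. The means were 19.8 ± 3.98 FPKM (SD, n = 4) in deletion and 25.4 ± 4.83 FPKM (SD, n = 3) in wild-type kidneys. The log2 difference was -0.35 (SE 0.18, limma unadjusted p = 0.0838), and -0.25 without wild-type 3.

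**Figure D2:**
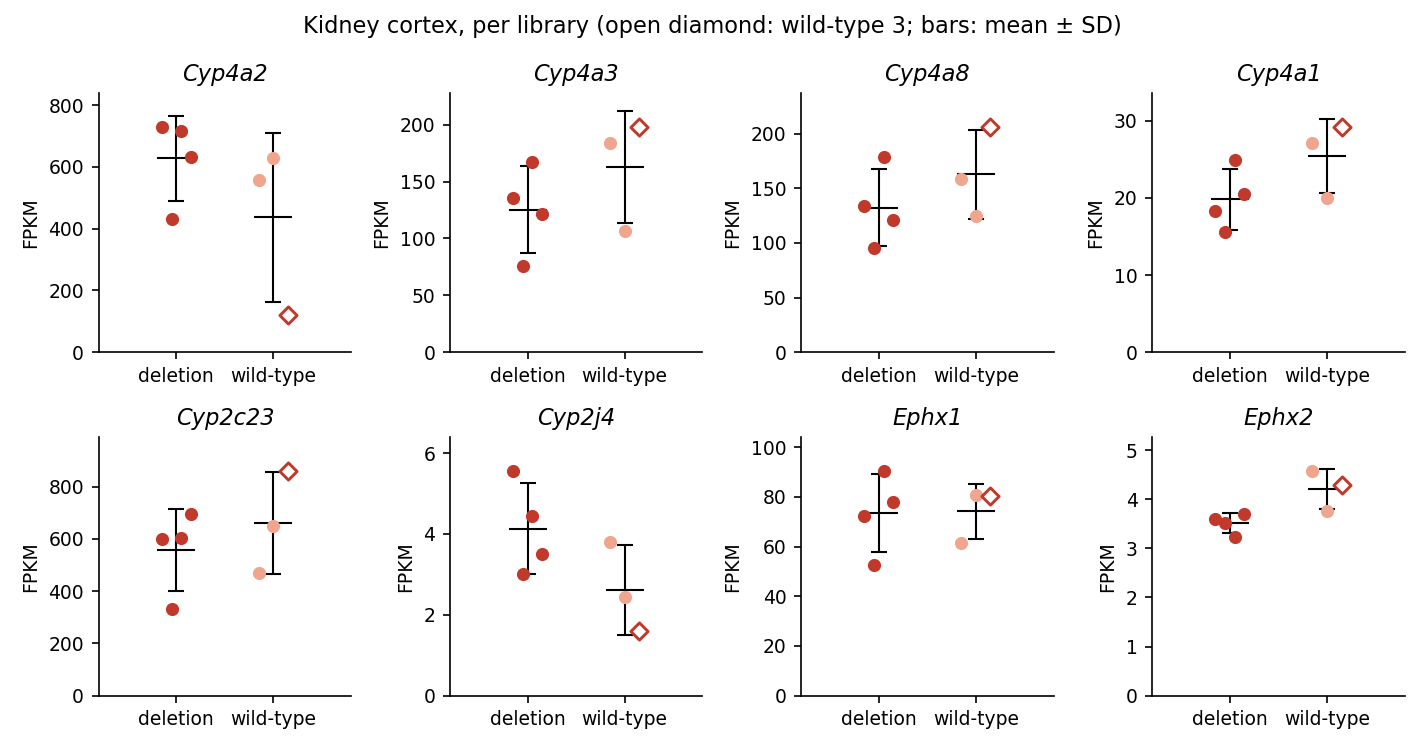
FPKM of each gene in the 7 kidney libraries, deletion on the left and wild-type on the right; points are libraries, bars are the mean ± SD, the open diamond is wild-type 3 and each axis starts at 0. Wild-type 3 is the lowest kidney for Cyp4a2 and Cyp2j4 and the highest for Cyp4a1, Cyp4a3, Cyp4a8 and Cyp2c23.

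The makeup of the Cyp4a RNA set wild-type 3 apart from the other kidneys. Cyp4a2 made up 71.6, 69.8, 65.8 and 70.6% of the summed FPKM of the 4 Cyp4a genes in the deletion kidneys, against 60.2, 71.5 and 22.0% in the wild-type kidneys. The sum itself was 1017, 619, 1088 and 894 FPKM in the deletion kidneys, against 927, 880 and 555 FPKM in the wild-type kidneys. Wild-type 3 thus had the lowest sum. Without Cyp4a2, the other 3 genes summed to 187 to 372 FPKM in the deletion kidneys, against 369, 251 and 433 FPKM in the wild-type kidneys, and wild-type 3 had the highest. The ratio of Cyp4a2 to Cyp4a3 was 4.27 to 5.67 in the deletion kidneys, against 3.04, 5.90 and 0.616 in the wild-type kidneys.

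**Figure D3:**
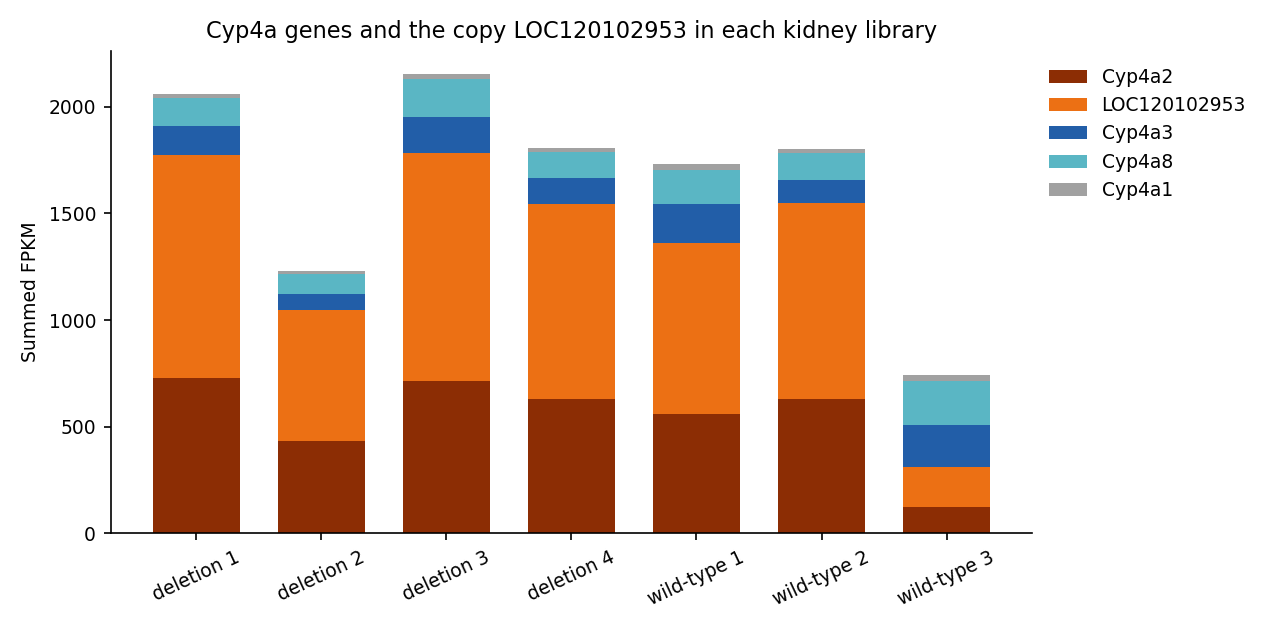
Summed FPKM of the 4 Cyp4a genes and LOC120102953 in each kidney library, stacked by gene, deletion libraries first. Cyp4a2 and LOC120102953 together make up 82.8 to 86.0% of the bar in deletion kidneys, against 78.7, 86.1 and 41.8% in wild-type kidneys 1, 2 and 3.

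Among the epoxygenases, Cyp2c23 had 601, 331, 604 and 696 FPKM in the deletion kidneys, against 471, 648 and 861 FPKM in the wild-type kidneys. The groups overlapped, with deletion 2 lowest and wild-type 3 highest. The means were 558 ± 158 FPKM (SD, n = 4) in deletion and 660 ± 195 FPKM (SD, n = 3) in wild-type kidneys. Its log2 difference was -0.25 (SE 0.32, limma unadjusted p = 0.454), and -0.04 without wild-type 3. Relative to the Cyp4a sum, Cyp2c23 stood at 0.535 to 0.778 in the deletion kidneys, against 0.508, 0.737 and 1.55 in the wild-type kidneys.

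Cyp2j4, of the CYP2J subfamily, had 5.56, 3.01, 4.44 and 3.51 FPKM in the deletion kidneys, against 3.79, 2.43 and 1.60 FPKM in the wild-type kidneys. The groups overlapped, and wild-type 3 was lowest. The means were 4.13 ± 1.12 FPKM (SD, n = 4) in deletion and 2.61 ± 1.11 FPKM (SD, n = 3) in wild-type kidneys. Its log2 difference was 0.60 (SE 0.27, limma unadjusted p = 0.0524, exact permutation p = 0.143), the smallest unadjusted p of the 8. It was 0.35 without wild-type 3. With limma array weights, which weight libraries by their estimated spread, it was 0.76 at an adjusted p of 0.0458, and 282 genes were then called in all. That fit gave wild-type 2 a weight of 18.2, against 0.268 to 1.86 for the other 6 kidneys, so it set the deletion kidneys mainly against 1 library, and the search for the weights stopped before it converged.

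Of the hydrolases, Ephx2 had 3.60, 3.51, 3.24 and 3.70 FPKM in the deletion kidneys, against 4.58, 3.76 and 4.29 FPKM in the wild-type kidneys. Every deletion kidney lay below every wild-type kidney. The means were 3.51 ± 0.201 FPKM (SD, n = 4) in deletion and 4.21 ± 0.412 FPKM (SD, n = 3) in wild-type kidneys. The exact permutation p was 0.0286, the smallest that 35 arrangements allow, in a family of 11 such tests on members and before any adjustment. With limma the log2 difference was -0.23 (SE 0.15, unadjusted p = 0.154), which did not pass, and it was -0.22 without wild-type 3.

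Ephx1 had 72.5, 52.7, 90.5 and 78.0 FPKM in the deletion kidneys, against 61.3, 80.8 and 80.4 FPKM in the wild-type kidneys. The deletion kidneys spanned all 3 wild-type values. The means were 73.4 ± 15.7 FPKM (SD, n = 4) in deletion and 74.2 ± 11.1 FPKM (SD, n = 3) in wild-type kidneys. The log2 difference was -0.03 (SE 0.20, limma unadjusted p = 0.888), 0.03 without wild-type 3 and 0.06 with quantile normalization. The 95% interval of its ratio was 0.713 to 1.35.

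**Figure D4:**
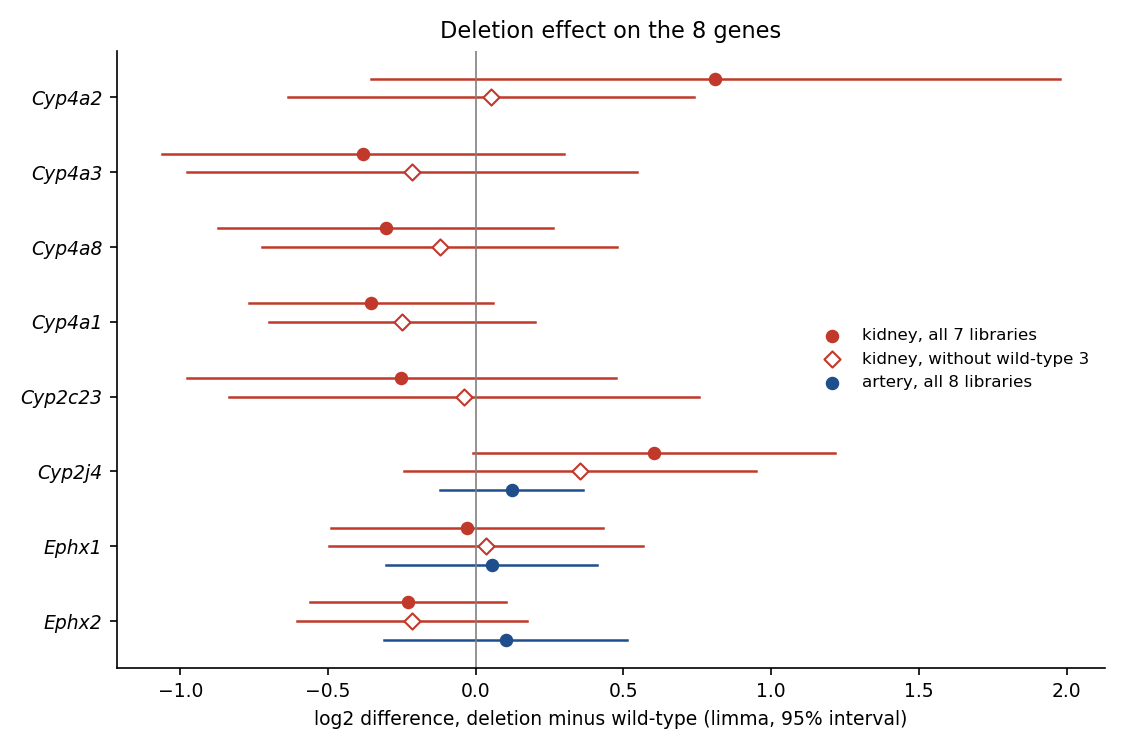
Log2 difference of each gene, deletion minus wild-type, with its 95% limma interval, in all 7 kidneys, in the 6 kidneys without wild-type 3, and in the 8 arteries for the 3 genes measured there. Every interval includes 0, and the value of Cyp4a2 is 0.81 with and 0.05 without wild-type 3.

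Deletion 2 was the lowest kidney for Cyp4a1, Cyp4a3, Cyp4a8, Cyp2c23 and Ephx1. The share of all genes lowest in deletion 2 is not given here, so this is not read as a result about the members. In deletion 2 the sum of the 6 proximal tubule markers was also the lowest, at 1702 FPKM, against 2227 to 2563 FPKM in the other 6 kidneys. The part of this in the differences was not tested. The same sum was 2341 FPKM in wild-type 3, within the range of the other kidneys, but its markers went different ways there. Slc34a1 was lowest in wild-type 3, at 892 FPKM, against 903 to 1187 FPKM in the other 6 kidneys. Lrp2 (764 FPKM, against 387 to 653 FPKM) and Cubn (220 FPKM, against 76.6 to 152 FPKM) were highest there. Of a longer list of 12 such markers, 2 were lowest and 3 highest in wild-type 3, beside 32.6% and 17.6% of all genes.

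Wild-type 3 set the extreme for 6 of the 8 genes. Cyp4a2 and Cyp2j4 lay below the other 6 kidneys, where 32.6% of all 15444 genes did so, and Cyp4a1, Cyp4a3, Cyp4a8 and Cyp2c23 lay above them, where 17.6% of all genes did so. The median of Cyp4a2 in the other 6 kidneys was 5.17 times its value in wild-type 3. Cyp4a2 was the only member among the 1.84% of genes that lay below all the others by over 2-fold. For Cyp2j4 that median was 2.28 times its value in wild-type 3. Slco1a1, an organic anion transporter, was at 0.0505 FPKM in wild-type 3 and 50.0 to 133 FPKM in the other 6 kidneys. Adh6 was at 172 FPKM in wild-type 3 and 0.346 to 0.805 FPKM in the others. Both are on a list of genes known to differ by sex or to be sex-linked, and were picked from it for their extreme values. Slc22a8 (167 FPKM in wild-type 3 and 158 to 256 FPKM in the others) and Slc7a13 (787 FPKM in wild-type 3 and 128 to 812 FPKM in the others), of the same list, lay inside the range. The part of this in the member differences was not tested.

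Relatives of the 8 genes on a list of other fatty acid hydroxylases, epoxygenases and epoxide hydrolases were also read in wild-type 3. Of 13 measured in the kidney, 5 were lowest and 4 were highest there, beside the 32.6% and 17.6% of all genes given above, so the counts are not read as a result about the list. Cyp2c11, a P450 known in rats as male-specific in the liver, was at 0 FPKM in wild-type 3 and 7.94 to 27.0 FPKM in the other 6 kidneys. Cyp2c24 was at 1.04 FPKM in wild-type 3 and 19.98 to 42.6 FPKM in the others. Cyp2e1, which oxidises ethanol, was at 196 FPKM there and 60.5 to 109 FPKM in the others, and Cyp4f1, which hydroxylates leukotriene and arachidonic acid in the rat, at 82.6 FPKM there and 21.8 to 51.0 FPKM in the others. Cyp2c24 and these examples were named for their extreme values after those were seen. Limma called 0 of the 13 genes between deletion and wild-type kidneys, and the list had a median log2 difference of 0.07 (0.00509 without wild-type 3). The smallest unadjusted limma p values belonged to Cyp4b1 (log2 difference -0.37, unadjusted p = 0.135; -0.23 without wild-type 3), Cyp2c11 (1.81, unadjusted p = 0.214; 0.14 without wild-type 3) and Cyp2u1 (0.28, unadjusted p = 0.227; 0.05 without wild-type 3), none of which passed. In the arteries 0 of 12 were called, with a median of 0.02. Between tissues 6 of 17 were called higher and 9 lower in the kidney, beside 35% and 42.4% of all genes. Cyp2e1 was higher there by 6.84 and Cyp4f1 by 6.33 on the log2 scale.

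**Figure D5:**
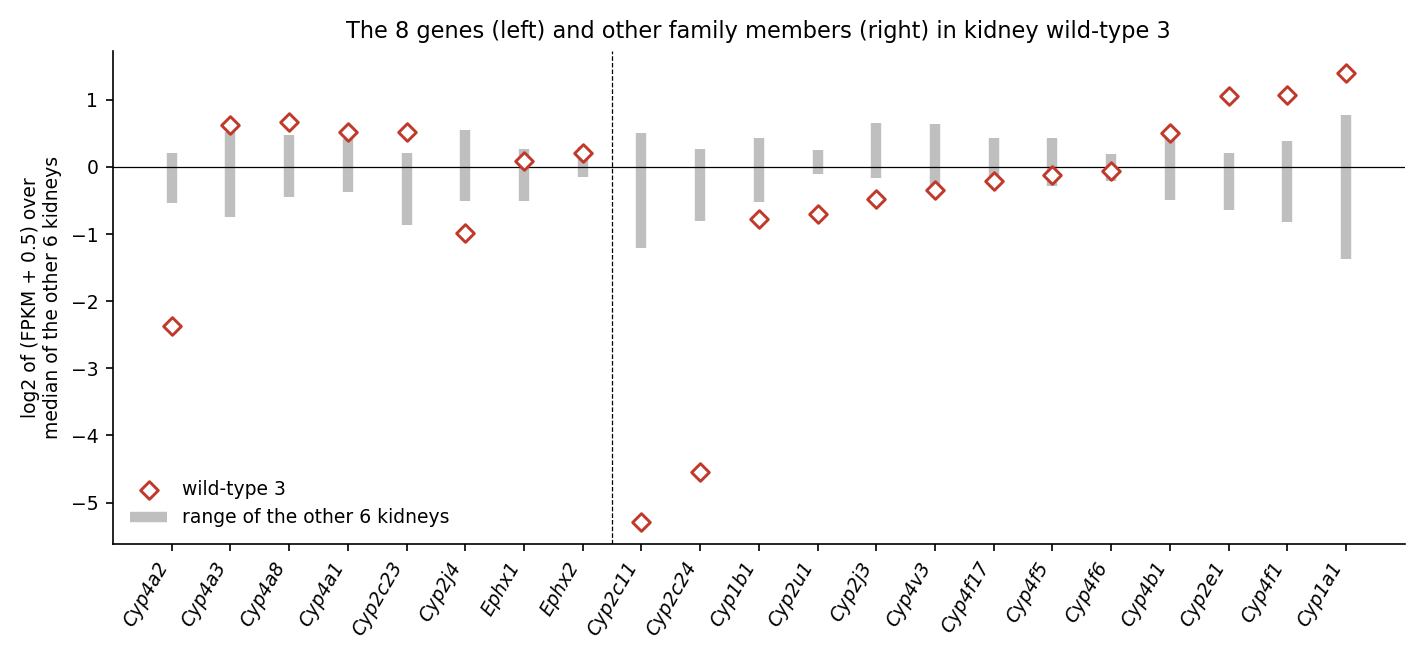
Level in kidney wild-type 3 (open diamonds) and range of the other 6 kidneys (grey bars), each as log2 of FPKM + 0.5 over the median of the other 6, for the 8 genes on the left and for 13 relatives on the right, ordered by value. Cyp4a2, Cyp2c11 and Cyp2c24 lie furthest below 0, while Cyp2e1, Cyp4f1 and Cyp1a1 lie furthest above.

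In the arteries, 3 of the 8 genes passed the filter of a mean of 0.5 FPKM. Limma called 0 of these 3 between deletion and wild-type, and 0 of 16470 genes (0%), with 0 members and 863 genes (5.24%) at an unadjusted p under 0.05. Cyp2j4 had 4.26, 3.90, 4.47 and 4.38 FPKM in the deletion arteries, against 3.79, 3.84, 3.65 and 4.19 FPKM in the wild-type arteries. Wild-type 4 lay inside the deletion range and the other wild-type arteries below it. The means were 4.25 ± 0.248 FPKM in deletion and 3.87 ± 0.229 FPKM in wild-type arteries (SD, n = 4 each), with an exact permutation p of 0.0571 and a log2 difference of 0.12 (SE 0.11, limma adjusted p = 0.902).

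Ephx1 had 24.4, 39.2, 40.1 and 36.6 FPKM in the deletion arteries, against 29.9, 33.8, 32.3 and 36.9 FPKM in the wild-type arteries. Deletion 1 was the lowest artery, and the groups overlapped. For Ephx1 the log2 difference was 0.05 (SE 0.16, limma adjusted p = 0.965), and -0.02 with array weights. Ephx2 had 1.56, 1.86, 1.76 and 1.70 FPKM in the deletion arteries, against 2.29, 1.65, 1.19 and 1.30 FPKM in the wild-type arteries. The wild-type arteries enclosed the deletion ones. The log2 difference of Ephx2 was 0.10 (SE 0.18, limma adjusted p = 0.941). For these 3 genes the groups overlapped, and 3.25% of all genes did not overlap. The fat cell sum was 711 to 1273 FPKM in the deletion arteries, against 685 to 982 FPKM in the wild-type arteries, and its part in the values was not tested.

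The remaining 5 genes were near 0 in every artery. The highest value was 0.252 FPKM in a deletion artery, against 0.754 FPKM in a wild-type artery, both for Cyp4a2. The proximal tubule markers were likewise low, at 1.48 to 3.17 FPKM in the deletion arteries, against 1.35 to 7.85 FPKM in the wild-type arteries. With the read depth unknown, values of this size were not compared between genotypes within the artery.

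The difference between the deletion effect in artery and that in kidney was also tested, over all 15 libraries. The 5 members near 0 in artery entered through their kidney levels. Their values also carry artery differences on the log2(FPKM + 0.5) scale, which rest on means under 0.5 FPKM. For Cyp2c23 the tested difference was -0.00398 and the kidney effect -0.25, so the artery part was not small there. Limma called 0 of 8 members and 0 of 17842 genes (0%), with 0 members and 768 genes (4.3%) at an unadjusted p under 0.05. The artery effect minus the kidney effect was -0.48 on the log2 scale for Cyp2j4 (SE 0.29, limma adjusted p = 0.947), and -0.23 without kidney wild-type 3. For Ephx2 it was 0.33 (SE 0.23, limma adjusted p = 0.947) and for Ephx1 0.08 (SE 0.26, limma adjusted p = 0.982; -0.05 with quantile normalization). Ephx2 was lower in the deletion kidneys and its artery value was positive, but the difference did not pass. For Cyp4a2 it was -0.99 (SE 0.61, limma adjusted p = 0.947), and -0.23 without kidney wild-type 3. The kidney difference of Cyp4a2 was 0.81, and 0.05 without wild-type 3. The rest of each value comes from artery levels near 0 FPKM, which were not compared between genotypes within the artery.

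Genes upstream and downstream of the 8 enzymes were read as lists. In each list limma called 0 genes between deletion and wild-type in either tissue. The list of electron partners and phospholipases that serve or feed the P450 enzymes had a median log2 difference of -0.07 over 10 genes in kidney (0.00933 without wild-type 3, of the other sign) and 0.09 over 11 in artery. The smallest p in artery was that of Pla2g4a, the cytosolic phospholipase that releases arachidonic acid, at -0.40 (limma unadjusted p = 0.0286, adjusted p = 0.893). Between tissues, 6 of 12 were called higher and 5 lower in the kidney, beside 35% and 42.4% of all genes. Cyb5a, an electron donor to P450 enzymes, averaged 123 FPKM in kidney and 44.6 FPKM in artery, and Por, the P450 reductase, 49.1 FPKM in kidney and 36.2 FPKM in artery.

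The lipoxygenase and leukotriene enzymes, a competing route for arachidonic acid, had a median log2 difference of 0.04 over 6 genes in kidney (-0.05 without wild-type 3, of the other sign) and -0.06 over 7 in artery. Between tissues 2 of 7 were called higher and 5 lower in the kidney, beside 35% and 42.4% of all genes. Alox5, the first enzyme of leukotriene synthesis, had a log2 difference of -2.52 and Ptgr1, which inactivates leukotriene B and prostaglandins, one of 2.11, kidney minus artery. Between genotypes the smallest unadjusted limma p in kidney was that of Ptgr1 (log2 difference -0.44, unadjusted p = 0.0937; -0.27 without wild-type 3). In artery it was that of Alox5ap (-0.35, limma unadjusted p = 0.0397, adjusted p = 0.893). Alox15 was at 0.917 FPKM in kidney wild-type 3 and 4.27 to 7.07 FPKM in the other 6 kidneys. It had a log2 difference between deletion and wild-type kidneys of 0.65 (-0.05 without wild-type 3).

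The receptors and effectors of 20-HETE and EETs had medians of 0.05 over 9 genes in kidney (0.00796 without wild-type 3) and -0.02 over 9 in artery. Between tissues 4 of 11 were called higher and 5 lower in the kidney, beside 35% and 42.4% of all genes. Slc12a1, the sodium, potassium and chloride cotransporter of the thick ascending limb, which 20-HETE inhibits, was higher in the kidney, with a log2 difference of 7.30. Kcnma1 and Kcnmb1, subunits of the potassium channel on which both lipids act in smooth muscle, were lower in the kidney, with log2 differences of -2.58 and -4.26.

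PPAR alpha, its partners and its targets in fatty acid oxidation had medians of -0.05 over 23 genes in kidney (-0.10 without wild-type 3) and 0.03 over 24 in artery. Between tissues 17 of 24 were called higher and 4 lower in the kidney, beside 35% and 42.4% of all genes. In the kidneys the smallest unadjusted limma p values were those of Acaa2, a thiolase of mitochondrial fatty acid oxidation (log2 difference -0.58, unadjusted p = 0.0544; -0.37 without wild-type 3), Ppargc1a (0.21, unadjusted p = 0.101; 0.22 without wild-type 3) and Acot1 (-0.54, unadjusted p = 0.13; -0.23 without wild-type 3), and none passed. In the arteries the smallest unadjusted limma p values were those of Acadm (0.32, unadjusted p = 0.0218), Acaa1a (0.46, unadjusted p = 0.0258) and Acaa2 (0.29, unadjusted p = 0.0695), all at a limma adjusted p of 0.893. Ppara itself, named outside the rule of smallest p or highest level, was at 17.1 FPKM in kidney wild-type 3 and 24.4 to 33.6 FPKM in the other 6 kidneys. Of the 23 genes, 6 were lowest and 5 highest in wild-type 3, beside 32.6% and 17.6% of all genes. These counts are not read as a result about the list, and the part of Ppara in the member values was not tested.

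The genes most like each member were sought among 15444 genes by the root mean square difference of centred log2(FPKM + 0.5) over the 15 libraries, a measure that the difference between tissues dominates. Nearest to Cyp4a2 was LOC120102953, at 0.21, and next came Agxt2 (0.57) and LOC688389 (0.57). Cyp4a3 and Cyp4a8 were nearer to each other, at 0.18, than either was to any gene outside the 8. Outside the 8, Cyp4a3 was most like Slc6a18 (0.25), Bhmt2 (0.27) and Slc22a12 (0.27), and Cyp4a8 most like Cdh16 (0.18), LOC120093086 (0.23) and Bhmt2 (0.24). Cyp4a1 was most like Aspdh (0.23), Adm2 (0.23) and Slc17a1 (0.24). Cyp2c23 was most like Sult1c2a (0.30), Glyat (0.32) and Acsm2 (0.33). Cyp2j4 was most like Adam9 (0.20), Dhx33 (0.21) and Ubash3b (0.21). Ephx1 was most like Crtap (0.12), Scpep1 (0.13) and Rab5if (0.14), and Ephx2 most like Dmac2l (0.15), Kat14 (0.15) and Stk16 (0.15).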

How the data were processed

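RNA-seq of total RNA was available as 1 deposited table of FPKM values for 15 libraries; the authors' FPKM are fragments scaled by gene length and library size. Tools listed in the submitters' processing notes, without their roles, are HISAT2 2.2.1, Trim Galore 0.6.2 and DESeq2 1.46.0, and the build is rn7. What computed the FPKM, and whether counting used strand, are not given in the sources used here, so reads of near-identical or antisense genes may be split or shared. Of 40694 table entries, 6337 without an identifier were left out, and 1 deposited column, a coverage value of no stated sample, was not used. Depth is unknown, so no counting interval is given.

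Values were analysed as log2(FPKM + 0.5), which understates changes of low genes, with limma 3.58.1 in R 4.3.3 (lmFit, eBayes with trend and robust moderation). Testing was limited to genes averaging 0.5 FPKM or more in the libraries of a tissue; across tissues a gene needed this mean in 1 of them. Tests are two-sided, with Benjamini-Hochberg adjustment over all genes tested and calls at an adjusted p under 0.05. Each tissue was fitted alone for the deletion effect; all 15 libraries gave the tissue term and the interaction. Differences of FPKM means were also tested by exact permutation. The fit was tested on simulated data. The members, lists and tests were chosen with earlier results of these data known. Named are all members, and from each other list the called genes (at most 6), or with none called the 3 with the smallest p, and the highest; not all of these are printed.

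Settings tried instead were pseudocounts (0.1 or 1), the filter (none, or 1 FPKM), scaling (median-of-ratios or quantile), non-robust moderation, array weights, a replicate block, a joint fit of the tissues, each library left out in turn and, added after the data were seen, Cyp4a2 summed with LOC120102953. RefSeq (GRCr8) gave names and promoters only; promoters were aligned with Biopython 1.88. Python 3.11.15 with matplotlib 3.10.9 drew the figures.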

Additional observations from a re-analysis of the deposited data

Results flagged for a closer look

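Single arteries stood apart for 3 genes that are near 0 in this tissue. Of 24 groups of 4 libraries examined, 3 held a library far from the others by Dixon's gap criterion. For normally spread values chance meets it in about 1 of 20 groups, but values this near 0 need not follow that rate. The count is therefore not read against it. The wild-type kidneys, a group of 3, were not examined in this way. Cyp4a1 was at 0.239 FPKM in deletion artery 1, against 0.0481 to 0.0669 FPKM in the other deletion arteries. Cyp4a2 was at 0.754 FPKM in wild-type artery 2, against 0.0238 to 0.0915 FPKM in the other wild-type arteries. That artery was also the highest for LOC120102953, Cyp4a3, Cyp4a8 and Cyp2c23 (0.443 FPKM), but not for Cyp4a1 (0.0634 FPKM). Its sum of the 6 proximal tubule markers was 3.77 FPKM, against 7.85 FPKM in wild-type artery 1. Cyp4a8 was at 0.0643 FPKM in deletion artery 4 and listed at 0 in the other 3 deletion arteries, so any value above 0 would have met the criterion.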

How the results depend on the processing

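Over the alternatives, 539 values of single members kept their direction and their side of the threshold, 34 turned sign and 4 passed it. With array weights, which rested mainly on wild-type 2, 1 member (Cyp2j4) and 282 genes were called in the kidney; a joint fit of both tissues called 1 gene there, and leaving out 1 library called 0 to 1. In the artery a pseudocount of 0.1 called 1 gene and leaving out 1 library 0 to 1. Leaving out 1 library gave 7 to 8 members and 13348 to 13930 genes called between kidney and artery. The exact permutation test passed for 0 to 1 members with 1 library left out. With array weights the kidney values of Cyp4a3 and Cyp4a8 were 0.27 and 0.0875, and the artery value of Ephx1 was -0.0184; quantile normalization gave 0.0643 for Ephx1 in kidney. With 1 library left out Ephx1 ran from -0.16 to 0.12 in kidney and from -0.0180 to 0.217 in artery. Artery effects minus kidney effects turned sign as follows. Cyp4a3 was -0.43 at a pseudocount of 0.1, -0.00198 with quantile normalization, -0.61 with array weights and -0.15 to 0.35 with 1 library left out. Cyp4a8 was -0.28, -0.29 with array weights, and -0.0577 to 0.305. Cyp2c23 was 0.10 at a pseudocount of 1, 0.0946 with median-of-ratios scaling and -0.24 to 0.22. Ephx1 was -0.0455 with quantile normalization and -0.0654 to 0.247. The cause was not tested. Median-of-ratios scaling moved the median of all genes between kidney and artery to 0.01, against -0.13.

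Same-numbered libraries were not treated as pairs in the main fits. Between deletion and wild-type, their deviations from group means correlated at -0.01 to 0.27 in kidney and -0.34 to 0.32 in artery. Between kidney and artery of a genotype they correlated at -0.08 to 0.22. Libraries of unlike number were not compared, so whether the numbers mark pairs was not settled. With the replicate block, 0 members were called between deletion and wild-type in either tissue, and the artery minus kidney effect of Cyp2c23 was 0.12. Depth is unknown, and 5 genes at under 0.5 FPKM in artery could not be compared there.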
